A study of Homo sapiens with 48 samples.

Results

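The 30 genes described here encode enzymes and regulators of cholesterol and fatty acid synthesis, most of them classical targets of the sterol regulatory element binding proteins (SREBPs). They were taken by gene name out of 58870 genes in the deposited table, with the fatty acid desaturase genes FADS1 to FADS3 left out. By role, 5 are regulators, 1 encodes a sterol transfer protein, 7 act in the mevalonate and isoprenoid steps, 11 act in the sterol branch and 6 act in fatty acid synthesis. All 30 passed the filter on low counts and were among the 16697 genes tested.

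The study sequenced 48 RNA libraries of Flp-In 293 T-REx, a line derived from human embryonic kidney cells that holds a site for inserting 1 transgene. Stable lines carried CLIP-tagged UPF1 in 1 of 6 mutant forms, which the labels call LECY, E797R, I757R, F192E, IR-ER and FE-ER, or in its wild-type form (WT), and a last line carried the CLIP tag alone (CLIP). The labels FE-ER, IR-ER and LECY are not spelled out and are used here as names. Each of the 8 lines received 40 nM of an siRNA against UPF1 (siUPF1) or a non-targeting siRNA (siNT) for 72 h, in 3 biological replicates per line and siRNA. UPF1 is the RNA helicase of nonsense-mediated mRNA decay (NMD). Every line kept its own endogenous UPF1 gene, and all libraries came from cells that had been through lipid-based transfection. The labels do not say whether a line is a clone or a pool, so the effect of a UPF1 form cannot be told apart from other differences between lines.

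Cholesterol is built from acetyl-CoA through mevalonate, isoprenoid diphosphates and squalene, and fatty acids are built from the same acetyl-CoA through malonyl-CoA. When membrane sterol is low, SCAP escorts SREBP from the endoplasmic reticulum to the Golgi, where proteases release the active factor, and INSIG proteins hold the SCAP and SREBP complex back when sterol is plentiful. SREBP-2, from SREBF2, acts mainly on sterol genes and SREBP-1, from SREBF1, more on fatty acid genes, with NF-Y and Sp1 as common partners at their promoters.

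Depth was 6016999 to 14551820 expected counts per library (median 8670883), and the 30 genes together took 0.267% to 0.412% of a library. Levels are CPM, counts relative to library size after TMM scaling, and means are given ± SD over 3 libraries. UPF1 RNA was 20.4 ± 0.916 CPM in CLIP cells with siUPF1, against 106 ± 7.45 CPM in CLIP cells with siNT (log2 change −2.37, adjusted p = 2.1e-17, edgeR quasi-likelihood test), so 19.3% was left. In the 7 lines with a UPF1 transgene the log2 change of UPF1 ran from −0.15 to 0.15 and was not called. UPF1 RNA in these lines was far above the CLIP levels. It averaged 4515 ± 409 CPM in WT cells with siUPF1 and 4059 ± 379 CPM in WT cells with siNT. Group means ran from 3260 CPM (LECY with siUPF1) to 4819 CPM (FE-ER with siUPF1). Both copies are counted at the same gene, so knockdown of the endogenous copy was not measurable there. Summed neural markers ranged from 238 to 497 CPM with siUPF1 and from 221 to 423 CPM with siNT, and summed kidney lineage markers from 38.9 to 63.7 CPM and from 44.7 to 62.0 CPM. Hepatocyte markers summed to at most 0.512 CPM and adipocyte markers to at most 2.04 CPM in a library. In bulk RNA, fewer cells with a transcript and less transcript per cell cannot be told apart.

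Promoters were compared by sequence between groups of genes formed by their calls. RefSeq gave a promoter window for 26 of the 30 genes (GRCh38.p14, 250 bases before to 50 bases after the gene start), and windows are written 5′ to 3′ on the strand of the gene. The letters CCAAT, the box bound by NF-Y, were searched on both strands, and capitals mark each CCAAT or its reverse complement ATTGG. At least 1 such box stood in 18 of the 26 windows (69.2%), against 35.7% of all 27305 promoter windows searched. The first 3 windows below belong to genes that fell with siUPF1 in CLIP and stood higher in WT cells than in CLIP cells under siUPF1. These windows hold 4, 3 and 2 boxes. The windows of this pattern that are not shown hold fewer or as few, with 2 in ACLY, 1 in TM7SF2 and 0 in IDI1.
MSMO1, chr4:165327419-165327718, plus strand: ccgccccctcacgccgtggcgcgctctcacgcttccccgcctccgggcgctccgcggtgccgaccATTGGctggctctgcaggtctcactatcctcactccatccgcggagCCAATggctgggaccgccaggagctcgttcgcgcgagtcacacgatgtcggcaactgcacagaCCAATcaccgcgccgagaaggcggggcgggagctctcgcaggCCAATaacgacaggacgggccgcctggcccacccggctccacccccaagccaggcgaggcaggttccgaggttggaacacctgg
FDPS, chr1:155308616-155308915, plus strand: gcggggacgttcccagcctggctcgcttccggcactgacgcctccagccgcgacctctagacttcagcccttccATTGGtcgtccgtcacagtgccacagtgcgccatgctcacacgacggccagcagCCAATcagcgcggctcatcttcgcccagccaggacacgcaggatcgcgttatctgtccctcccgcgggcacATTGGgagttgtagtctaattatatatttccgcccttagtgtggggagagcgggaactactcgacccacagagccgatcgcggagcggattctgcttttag
HMGCS1, chr5:43313363-43313662, minus strand: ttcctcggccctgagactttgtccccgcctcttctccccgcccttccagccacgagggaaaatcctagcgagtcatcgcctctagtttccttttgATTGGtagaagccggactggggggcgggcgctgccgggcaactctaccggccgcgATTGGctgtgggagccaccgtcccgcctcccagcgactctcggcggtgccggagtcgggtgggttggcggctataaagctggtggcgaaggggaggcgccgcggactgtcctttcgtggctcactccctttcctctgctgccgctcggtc

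The next 3 windows belong to the genes called in all 8 lines, with SCAP and ACACA higher and PMVK lower. These calls come from the model without the replicate number as a block. None of the 3 windows holds a CCAAT box.
SCAP, chr3:47475892-47476191, minus strand: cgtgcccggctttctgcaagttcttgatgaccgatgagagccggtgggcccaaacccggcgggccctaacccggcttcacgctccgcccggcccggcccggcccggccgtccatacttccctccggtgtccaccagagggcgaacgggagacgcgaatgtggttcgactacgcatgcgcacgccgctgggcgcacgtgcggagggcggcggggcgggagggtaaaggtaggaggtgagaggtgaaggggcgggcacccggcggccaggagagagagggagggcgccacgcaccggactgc
PMVK, chr1:154936670-154936969, minus strand: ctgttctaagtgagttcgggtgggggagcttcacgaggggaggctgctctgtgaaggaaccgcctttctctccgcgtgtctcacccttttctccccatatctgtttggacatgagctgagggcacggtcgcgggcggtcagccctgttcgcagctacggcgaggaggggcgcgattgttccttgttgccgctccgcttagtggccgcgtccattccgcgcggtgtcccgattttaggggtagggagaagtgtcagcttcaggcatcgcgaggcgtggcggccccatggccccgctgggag
ACACA, chr17:37406787-37407086, minus strand: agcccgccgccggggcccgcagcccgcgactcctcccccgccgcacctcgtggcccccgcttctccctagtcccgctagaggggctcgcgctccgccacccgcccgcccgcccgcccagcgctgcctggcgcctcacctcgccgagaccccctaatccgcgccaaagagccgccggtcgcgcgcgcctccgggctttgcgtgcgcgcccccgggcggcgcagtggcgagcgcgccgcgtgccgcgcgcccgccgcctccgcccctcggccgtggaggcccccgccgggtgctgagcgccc

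Of the 8 genes with the pattern of the first 3 windows, 6 had a window and 5 of those held at least 1 box, IDI1 being the exception, while 13 of 17 windows of genes outside both groups held one. These genes were grouped by their expression, so the counts of boxes are a description. The groups also depend on the model. With the replicate number as a block, DHCR7, SREBF1 and SREBF2 were called higher in all 8 lines too. Their windows hold 2, 0 and 1 boxes. The RefSeq start lay within 500 bases of the GENCODE 5′ end of the counted gene for 19 of the 26 windows. It lay 11520 bases from it for ACLY, 7534 for IDI1, 4475 for DHCR7 and 1185 for SCAP, so those windows can belong to another start of the gene. Letters TCACNCCAC, the core of a sterol regulatory element, stood in 1 of the 26 windows, that of SREBF2, with the first base 133 bases before the start, against 1.15% of all windows. In that window the capitals mark both this core and the 1 NF-Y box.
SREBF2, chr22:41832855-41833154, plus strand: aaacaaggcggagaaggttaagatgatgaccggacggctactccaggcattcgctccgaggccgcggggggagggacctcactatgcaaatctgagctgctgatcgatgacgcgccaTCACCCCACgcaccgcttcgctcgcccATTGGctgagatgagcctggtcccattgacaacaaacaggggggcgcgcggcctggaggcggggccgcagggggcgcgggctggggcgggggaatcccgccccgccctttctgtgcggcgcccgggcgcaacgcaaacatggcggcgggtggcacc

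Sp1 boxes (GGGCGG, both strands) were in 24 of 26 windows, or 92.3%, against 44.6% of all windows, and E-boxes (CACGTG) in 5 of 26, or 19.2%, against 7.43%. Letters in a window do not show that a factor binds there, and windows without a match say only that these letters are not in these 300 bases.

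Per kilobase of exon, 3 fatty acid genes had high levels in the 24 libraries with siNT. ACLY, which makes cytosolic acetyl-CoA from citrate, had 98.9 CPM per kb, SCD, which makes oleate, 85.2 CPM per kb, and FASN, the fatty acid synthase, 61.4 CPM per kb. FDPS, farnesyl diphosphate synthase, had 34.6 CPM per kb and HMGCS1, which makes the substrate of the mevalonate pathway, 31.2 CPM per kb. At the low end stood HSD17B7, a 3-ketosteroid reductase, at 2.18 CPM per kb, SREBF1 at 2.45 CPM per kb and MVK, mevalonate kinase, at 2.70 CPM per kb. Neighbours in this order were close, and their order was not tested.

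Knockdown in CLIP cells, which carry no UPF1 transgene, moved genes in both directions. Of the 30 genes 11 fell, 4 rose and 15 did not pass the test, that is 50% called where 33.7% of all tested genes were called (15.6% lower and 18.1% higher). The falls were in 5 of 7 mevalonate and isoprenoid genes, 4 of 11 sterol branch genes, ACLY and the sterol transfer gene STARD4, and the rises were in SREBF1, SCAP, ACACA and MVD. The median log2 change was −0.14 over the 30 genes and −0.03 over all genes tested. The heat map of responses shows the falls of mevalonate genes in CLIP and LECY and the rises of SCAP and ACACA in every line.

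**Figure D1:**
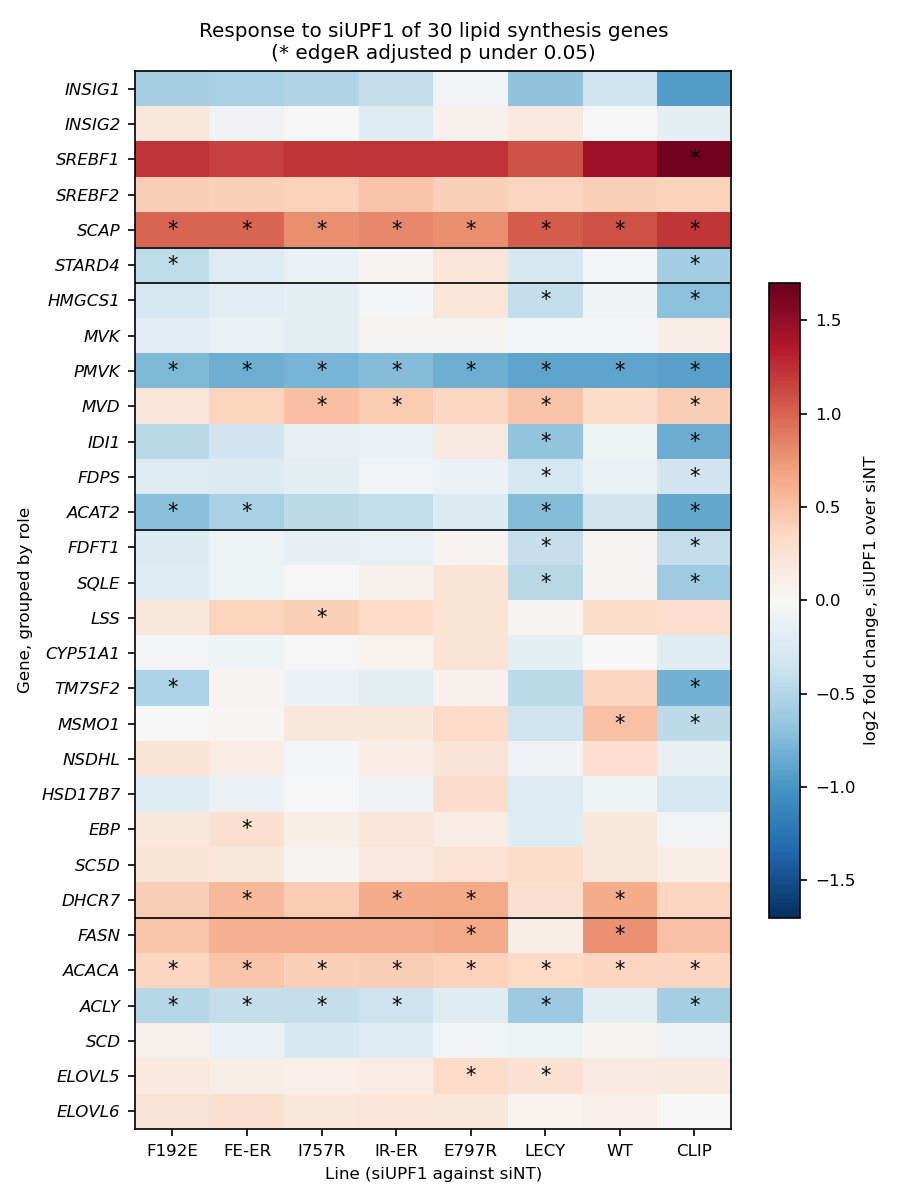
Log2 change with siUPF1 against siNT for each of the 30 genes (rows, ordered by role) in each of the 8 lines (columns), with asterisks on changes called at an adjusted p under 0.05. SCAP and ACACA are higher and PMVK is lower in all 8 columns, and most mevalonate and isoprenoid genes are lowest in CLIP and LECY.

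Among the regulators, SCAP, the sterol sensor that escorts SREBP, rose in every line. SCAP had 67.2, 57.9 and 69.9 CPM in CLIP cells with siUPF1, against 34.1, 22.2 and 28.0 CPM in CLIP cells with siNT (log2 change 1.22, SE 0.14, adjusted p = 1.29e-08, edgeR). Over all lines its 24 libraries with siUPF1 ranged from 48.4 to 71.8 CPM with a median of 58.4 CPM, and the 24 with siNT from 22.2 to 44.1 CPM with a median of 30.5 CPM. No library with siUPF1 was as low as any library with siNT. Of the 30 genes only SCAP had such a separation, and how many of all tested genes had it is not given here. The log2 change of SCAP ran from 0.79 in E797R to 1.22 in CLIP and was called in all 8 lines. WT cells showed 1.08 (SE 0.15, adjusted p = 9.98e-07), and the change in WT minus that in CLIP was −0.14 (SE 0.21, adjusted p = 0.862).

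SREBF1 had 57.3, 30.5 and 47.9 CPM in CLIP cells with siUPF1, against 16.4, 8.77 and 18.3 CPM in CLIP cells with siNT. The groups did not overlap, and the middle library of each, replicate 2, was the lowest of its group. This was a log2 change of 1.64 (SE 0.55, adjusted p = 0.0203, edgeR). It lost its call without CLIP siUPF1 replicate 1 (adjusted p = 0.0722) or CLIP siNT replicate 2 (adjusted p = 0.104). In the other 7 lines its log2 change lay between 1.08 (LECY) and 1.44 (WT) and was not called, with adjusted p up to 0.138. With the replicate number as a block SREBF1 rose in all 8 lines (largest adjusted p = 0.00059), and siUPF1 was above siNT in 24 of 24 same-numbered pairs.

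SREBF2 averaged 149 ± 32.9 CPM in CLIP cells with siUPF1 and 114 ± 30.3 CPM in CLIP cells with siNT, with overlapping libraries. Its log2 change was 0.39 there (adjusted p = 0.276) and 0.36 to 0.48 over the 8 lines, called in none of them and, with the replicate block, in all 8 (largest adjusted p = 0.00254). It too was higher in 24 of 24 pairs. INSIG1, which retains SCAP and is itself an SREBP target, had log2 changes of the opposite sign in most pairs. It had 63.8, 43.2 and 53.1 CPM in CLIP cells with siUPF1, against 114, 75.5 and 119 CPM in CLIP cells with siNT. The groups did not overlap, but the change of −0.95 (SE 0.41) passed the test with the replicate block (adjusted p = 2.38e-05) and not without it (adjusted p = 0.0722). It was lower in 22 of 24 pairs, and fell in 5 lines with the block. INSIG2, its paralog, averaged 10.8 ± 0.793 CPM in CLIP cells with siUPF1 and 12.1 ± 1.53 CPM in CLIP cells with siNT, and was called in no line.

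Of the 7 mevalonate and isoprenoid genes, 5 fell and MVD rose in CLIP. PMVK, phosphomevalonate kinase, had 7.81, 7.07 and 6.34 CPM in CLIP cells with siUPF1, against 13.1, 12.8 and 14.3 CPM in CLIP cells with siNT. The groups were apart, and the fall was −0.92 (SE 0.18, adjusted p = 7.62e-05, edgeR). In WT cells PMVK had 7.72, 5.48 and 6.90 CPM with siUPF1, against 11.98, 13.3 and 12.4 CPM with siNT (−0.90, SE 0.19, adjusted p = 0.000569). PMVK fell in all 8 lines, by log2 changes between −0.92 (CLIP) and −0.73 (IR-ER), and it was lower in 24 of 24 pairs. MVD, mevalonate diphosphate decarboxylase, rose to 26.9 ± 2.93 CPM in CLIP cells with siUPF1, against 20.1 ± 2.57 CPM in CLIP cells with siNT (0.41, SE 0.15, adjusted p = 0.0265). MVD was called higher in 4 lines, and in 6 with the replicate block, and its log2 change was positive in all 8.

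HMGCS1 had 96.2, 95.7 and 99.6 CPM in CLIP cells with siUPF1, against 154, 152 and 165 CPM in CLIP cells with siNT (−0.69, SE 0.14, adjusted p = 0.000116). In WT cells it had 105, 138 and 151 CPM with siUPF1, against 130.2, 139 and 141 CPM with siNT (−0.06, adjusted p = 0.837). The groups were apart in CLIP and overlapped in WT. IDI1, isopentenyl diphosphate isomerase, had 58.1, 50.1 and 47.6 CPM in CLIP cells with siUPF1, against 99.2, 87.1 and 92.4 CPM in CLIP cells with siNT (−0.84, SE 0.18, adjusted p = 0.000335). In WT cells IDI1 had 78.7, 77.7 and 85.0 CPM with siUPF1, against 100.1, 77.1 and 78.8 CPM with siNT (−0.08, adjusted p = 0.832). Again the CLIP groups were apart and the WT groups overlapped.

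ACAT2, which joins 2 acetyl-CoA molecules in the cytosol, had 53.4, 55.1 and 54.3 CPM in CLIP cells with siUPF1, against 94.8, 103 and 99.5 CPM in CLIP cells with siNT (−0.87, SE 0.18, adjusted p = 0.000218). The siUPF1 libraries were close to each other and far below the siNT libraries. ACAT2 fell in 4 lines, and in 6 with the replicate block, and was lower in 24 of 24 pairs, with −0.32 in WT (adjusted p = 0.268). FDPS had 100.5, 95.5 and 105 CPM in CLIP cells with siUPF1, against 128, 111 and 137 CPM in CLIP cells with siNT (−0.32, SE 0.09, adjusted p = 0.00451). FDPS fell in 2 lines without the block and in 5 with it, as IDI1 did in 2 and 4. Without CLIP siNT replicate 3 the FDPS call in CLIP was lost (adjusted p = 0.0526). MVK had a log2 change of 0.11 in CLIP and was called in no line. STARD4, which moves sterol between membranes, fell in CLIP to 19.5 ± 3.69 CPM with siUPF1, against 29.1 ± 1.15 CPM with siNT (−0.58, SE 0.14, adjusted p = 0.00143), and fell in F192E by 0.44.

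In the sterol branch 4 of 11 genes fell in CLIP, FDFT1, SQLE, TM7SF2 and MSMO1. FDFT1, squalene synthase, had 108, 99.5 and 108 CPM in CLIP cells with siUPF1, against 137, 124 and 157 CPM in CLIP cells with siNT (−0.41, SE 0.11, adjusted p = 0.00278). SQLE, squalene epoxidase, had 71.0, 68.9 and 66.7 CPM in CLIP cells with siUPF1, against 109, 88.1 and 117 CPM in CLIP cells with siNT (−0.60, SE 0.18, adjusted p = 0.00766). Neither overlapped between the CLIP groups. TM7SF2, a sterol C14 reductase, had 8.94, 6.61 and 7.48 CPM in CLIP cells with siUPF1, against 14.8, 11.2 and 14.3 CPM in CLIP cells with siNT (−0.81, SE 0.18, adjusted p = 0.000563). MSMO1, the C4 methylsterol oxidase, averaged 11.0 ± 0.121 CPM with siUPF1 and 15.1 ± 2.95 CPM with siNT in CLIP cells (−0.45, SE 0.18, adjusted p = 0.0458). That call was lost without CLIP siNT replicate 1 or any 1 of the CLIP siUPF1 libraries, with adjusted p up to 0.277.

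The other 7 genes of the branch were not among the falls in CLIP. DHCR7, which makes cholesterol in the last step, averaged 46.6 ± 6.25 CPM with siUPF1 and 36.1 ± 4.53 CPM with siNT in CLIP cells (0.37, adjusted p = 0.119). It rose in WT, FE-ER, IR-ER and E797R by 0.55 to 0.65, and with the replicate block in all 8 lines. LSS, lanosterol synthase, rose in I757R by 0.41, and with the block it rose in 5 lines. EBP, a sterol isomerase, rose in FE-ER by 0.27. CYP51A1, NSDHL, HSD17B7 and SC5D, which act on lanosterol and its products, had CLIP log2 changes of −0.21, −0.13, −0.29 and 0.11 and were called in no line without the block. With it SC5D rose in F192E (0.25) and LECY (0.30), and the other 3 were called in no line.

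In fatty acid synthesis ACACA, acetyl-CoA carboxylase 1, rose in all 8 lines while ACLY fell in 6. ACACA had 209, 207 and 231 CPM in CLIP cells with siUPF1, against 183, 153 and 166 CPM in CLIP cells with siNT (0.36, SE 0.09, adjusted p = 0.00143). Its 24 libraries with siUPF1 had a median of 226 CPM (187 to 255 CPM), and the 24 with siNT a median of 173 CPM (149 to 188 CPM), and its log2 change ran from 0.34 (LECY) to 0.48 (FE-ER). Only the lowest siUPF1 library overlapped the siNT range, and ACACA was higher in 24 of 24 pairs. The WT call was lost without WT siNT replicate 2 (adjusted p = 0.0551).

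ACLY had 343, 351 and 350.2 CPM in CLIP cells with siUPF1, against 552, 453 and 536 CPM in CLIP cells with siNT (−0.56, SE 0.09, adjusted p = 3.06e-06). In WT cells ACLY had 522, 459.6 and 440.1 CPM with siUPF1, against 585, 482 and 527 CPM with siNT (−0.17, SE 0.09, adjusted p = 0.224). The CLIP groups were apart and the WT groups overlapped. ACLY fell in CLIP, F192E, FE-ER, I757R, IR-ER and LECY, and with the block also in E797R, with the lowest log2 change, −0.62, in LECY. FASN averaged 755 ± 141 CPM with siUPF1 and 535 ± 105 CPM with siNT in CLIP cells (0.50, adjusted p = 0.0879). FASN rose in WT (0.77, adjusted p = 0.0159) and E797R (0.65), and with the replicate block in all lines but LECY. ELOVL5, an elongase of polyunsaturated fatty acids, rose in E797R (0.33) and LECY (0.26), and SCD was called in no line. ELOVL6, an elongase of saturated fatty acids, rose in FE-ER with the block (0.27, adjusted p = 0.0465) and in no line without it.

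**Figure D2:**
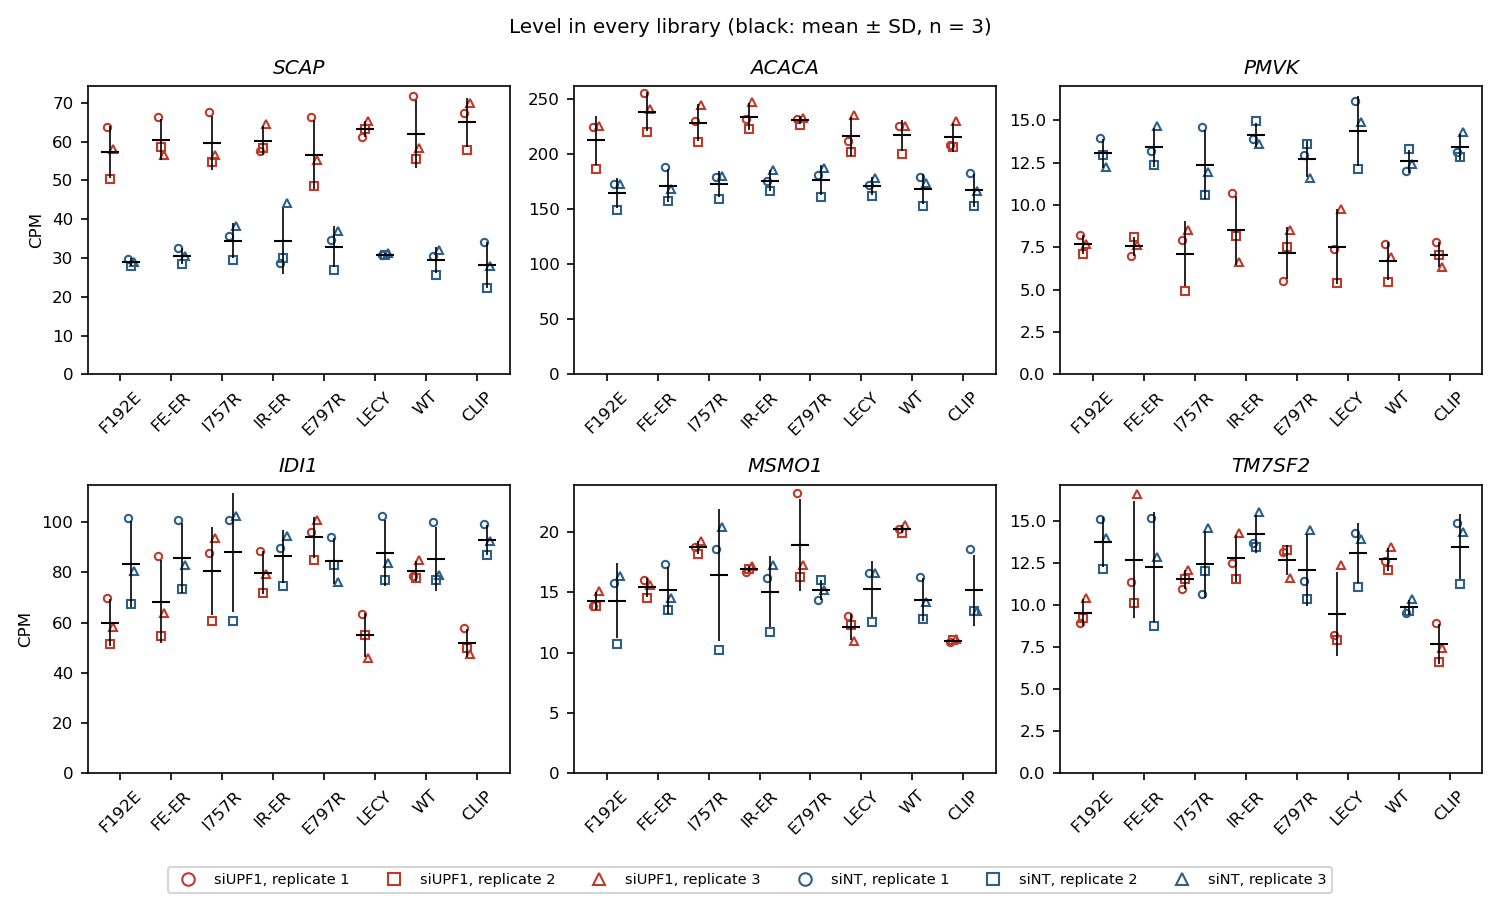
Level in CPM in every library for SCAP, ACACA, PMVK, IDI1, MSMO1 and TM7SF2, by line, with siUPF1 left of siNT in each line and black bars for mean ± SD. SCAP lies between 48.4 and 71.8 CPM with siUPF1 and between 22.2 and 44.1 CPM with siNT in all lines, and MSMO1 in CLIP is at 11.0 ± 0.121 CPM with siUPF1 and 15.1 ± 2.95 CPM with siNT.

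The lines with a UPF1 transgene were tested in the same way. In WT cells 5 of the 30 rose (SCAP, ACACA, FASN, DHCR7 and MSMO1) and PMVK fell, that is 20% called, against 15.4% of all tested genes (8.43% higher and 6.98% lower). In LECY 4 rose and 8 fell (40% called, against 29.4% of all genes, 15.8% higher and 13.6% lower), and the 8 were PMVK, HMGCS1, IDI1, FDPS, ACAT2, FDFT1, SQLE and ACLY. F192E had 2 higher and 5 lower (11.8% and 10.1% of all genes), FE-ER 4 and 3 (10.1% and 8.52%), I757R 4 and 2 (8.13% and 7.79%), IR-ER 4 and 2 (9.21% and 7.8%) and E797R 5 and 1 (8.34% and 7.73%). With the replicate block the genes called in either direction were 11 in E797R (27.4% of all genes), 11 in IR-ER (28.2%), 13 in I757R (28.5%), 16 in FE-ER (31.1%), 18 in F192E (34.6%) and 18 in LECY (41.6%). They were 9 in WT (26.1%) and 20 in CLIP (45.6%). SQLE, called in CLIP and LECY without the block, was with it also lower in F192E (−0.22) and higher in E797R (0.23). FDFT1 and HMGCS1 were with it also lower in F192E, and TM7SF2 in LECY. The rise of MSMO1 in WT was lost without any 1 of the WT siUPF1 libraries or WT siNT replicate 2 or 3 (adjusted p 0.0766 to 0.215). The count in WT was 2 without WT siNT replicate 2 and 3 without WT siUPF1 replicate 1, that in E797R was 3 without E797R siUPF1 replicate 1 or siNT replicate 2, and that in FE-ER was 4 without FE-ER siUPF1 replicate 1 or 3 or siNT replicate 3. Averaged over the 8 lines, 12 of the 30 rose and 10 fell, where 62.8% of all tested genes were called (31.6% higher and 31.2% lower). With the block SQLE and SCD were called lower and NSDHL higher as well, 25 in all (69.1% of all genes). All tested genes called in all 8 lines were 591 with a rise (3.54%) and 534 with a fall (3.20%), against 2 and 1 of the 30. With the block 5 of the 30 rose in all 8 lines (SCAP, ACACA, DHCR7, SREBF1 and SREBF2) and 1 fell. The share of all tested genes called in all 8 lines with the block is not given here.

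The 8 genes that fell in CLIP and that stood higher in WT than CLIP under siUPF1 can be followed through the other lines. The calls that define the 8 genes compare CLIP and WT groups only. The other lines are still not independent of the choice, since the gene list was made with earlier results of these data known. The model behind the calls was also fitted to all libraries together. The 8 genes were HMGCS1, IDI1, FDPS, FDFT1, SQLE, TM7SF2, MSMO1 and ACLY. Several of the calls that define them rest on single libraries, as given with WT minus CLIP. Their median log2 change with siUPF1 was −0.42 in LECY and −0.26 in F192E, with all 8 negative in both lines and 6 and 2 of them called. The median was −0.14 in FE-ER, −0.13 in I757R and −0.08 in IR-ER, with 6 of 8 negative in each. In E797R it was 0.11, with 2 of 8 negative. Over all tested genes the median lay between −0.01 and 0.02 in these 6 lines.

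WT was set against CLIP to ask which genes differed when a wild-type transgene was present. The transgene held UPF1 RNA far above its level in CLIP cells with siNT, so WT cells are not a return to that level. With siUPF1, 9 of the 30 differed and all 9 were higher in WT cells (30% called higher, against 5.45% of all tested genes; 14.1% were called in either direction). They were HMGCS1, IDI1, FDPS, FDFT1, SQLE, TM7SF2, MSMO1, NSDHL and ACLY. MSMO1 had 20.2, 19.9 and 20.6 CPM in WT cells and 10.9, 11.0 and 11.1 CPM in CLIP cells (log2 difference 0.88, SE 0.18, adjusted p = 0.000385). TM7SF2 had 12.6, 12.1 and 13.4 CPM in WT and 8.94, 6.61 and 7.48 CPM in CLIP (0.73, SE 0.19, adjusted p = 0.00495). For both the WT libraries were all above the CLIP libraries. IDI1 differed by 0.63, SQLE by 0.55, ACLY by 0.45, HMGCS1 by 0.43, NSDHL, a C4 sterol dehydrogenase, by 0.40 and FDFT1 by 0.39, with FDPS at 0.26 (adjusted p = 0.0496). With the replicate block ACAT2, STARD4 and FASN were higher in WT cells too, 12 in all (12.3% of all genes higher). HMGCS1, FDPS and SQLE each lost the call without any 1 of 5 of the 6 libraries (adjusted p up to 0.188, 0.193 and 0.139), IDI1 and NSDHL without 1 of 3 and FDFT1 without 1 of 2. MSMO1, TM7SF2 and ACLY kept it without each of the 6 in turn. The count was 4 without CLIP siUPF1 replicate 2 and 5 without CLIP siUPF1 replicate 1, CLIP siUPF1 replicate 3 or WT siUPF1 replicate 3. SCAP, SREBF1 and ACACA had differences of −0.07, 0.07 and 0.01 between the same groups, with adjusted p of at least 0.827.

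LECY was set against WT in the same way. With siUPF1, 5 of the 30 differed and all 5 were lower in LECY than in WT (13.5% of all tested genes called, 5.34% lower), and with the replicate block 13 were lower (11.8% of all genes), HMGCS1, FDPS, SQLE, CYP51A1, TM7SF2, NSDHL, ACAT2 and FASN being added. MSMO1 had 13.1, 12.3 and 10.9 CPM in LECY and 20.2, 19.9 and 20.6 CPM in WT (−0.75, SE 0.18, adjusted p = 0.00279). ACLY had 348, 345 and 299 CPM in LECY and 522, 459.6 and 440.1 CPM in WT (−0.52, SE 0.09, adjusted p = 4.17e-05). Both were lower in every LECY library. IDI1 differed by −0.55, FDFT1 by −0.46 and EBP by −0.36, and SQLE by −0.51 without passing the test (adjusted p = 0.0514, and 1.86e-05 with the block). IDI1 lost its call without any 1 of the WT siUPF1 libraries or LECY siUPF1 replicate 2 or 3 (adjusted p 0.0572 to 0.206). EBP lost its call without LECY siUPF1 replicate 2 or WT siUPF1 replicate 3, with adjusted p up to 0.0843. In F192E minus WT, ACLY was the 1 gene lower (−0.40, adjusted p = 0.00687; 1.82% of all genes called, 0.311% lower), and with the block IDI1, FDFT1, SQLE, MSMO1 and ACAT2 were lower too (2.74% of all genes lower). The ACLY call was lost without WT siUPF1 replicate 1 or F192E siUPF1 replicate 3. These comparisons share the WT libraries, so their values are not independent.

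**Figure D3:**
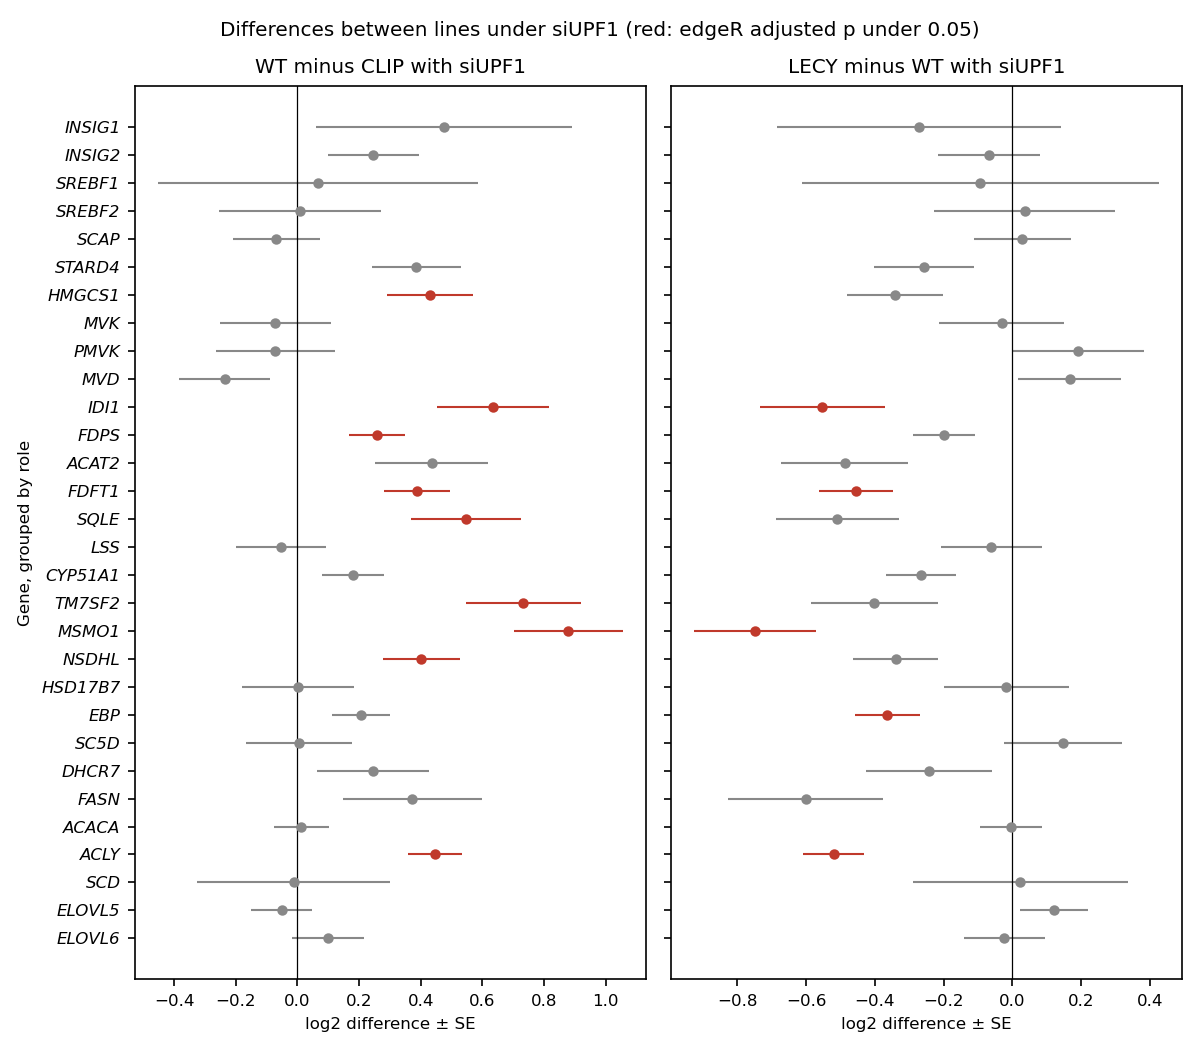
Log2 difference with siUPF1 for each of the 30 genes, WT minus CLIP and LECY minus WT, with bars of 1 SE and red points for differences called at an adjusted p under 0.05. MSMO1 stands at 0.88 in WT minus CLIP and at −0.75 in LECY minus WT, and both comparisons use the same 3 WT libraries.

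FE-ER, I757R, IR-ER and E797R did not differ detectably from WT with siUPF1 in any of the 30 genes by edgeR, with 2, 3, 2 and 2 genes at an unadjusted p under 0.05 and 0 by DESeq2 (0.425%, 0.0779%, 0.246% and 0.0479% of all genes called). With the block ACLY was lower in I757R (0.21% of all genes lower) and IR-ER (1.01%). With siNT none of the 30 differed in any of the 7 comparisons between lines, by edgeR or by DESeq2, and at most 1 gene per comparison had an unadjusted p under 0.05. Of all tested genes 0.012% were called in WT minus CLIP, 0% in F192E minus WT, 0.018% in E797R minus WT and 0.00599% in each of the other 4. The log2 differences with siNT ran from −0.44 (TM7SF2, WT minus CLIP) to 0.52 (TM7SF2, IR-ER minus WT).

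The response itself was then compared between lines, as the log2 change of one line minus that of another. TM7SF2 responded more positively in WT than in CLIP by 1.18 (SE 0.26, adjusted p = 0.00362, edgeR) and MSMO1 by 0.95 (SE 0.25, adjusted p = 0.0183), where 4% of all tested genes were called. In WT cells TM7SF2 had 12.6, 12.1 and 13.4 CPM with siUPF1, against 9.52, 9.67 and 10.4 CPM with siNT, so it was low in WT with siNT as well as in CLIP with siUPF1. The siNT difference between these lines (−0.44) enters this value. With the block HMGCS1, IDI1, FDFT1, SQLE, ACAT2 and ACLY also differed, 8 in all (9.55% of all genes). The count was 1 without CLIP siNT replicate 1 or WT siNT replicate 2. ACLY responded more negatively in LECY than in WT by 0.46 (log2 difference −0.46, SE 0.12, adjusted p = 0.029; 3.31% of all genes called), and with the block IDI1, FDFT1, SQLE, TM7SF2, MSMO1, EBP and FASN did too (8.46% of all genes). The ACLY call was lost without WT siUPF1 replicate 1, WT siNT replicate 2 or 3, or LECY siNT replicate 1 or 3. In F192E minus WT no gene was called without the block (0.18% of all genes; 4 at an unadjusted p under 0.05, and 0 by DESeq2) and TM7SF2 was called with it (−0.89; 0.563% of all genes). FE-ER, I757R, IR-ER and E797R had none in either fit (0.00599%, 0%, 0% and 0% of all genes, and 0, 0, 1 and 0 at an unadjusted p under 0.05).

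Replicate number 2 stood apart for part of these genes, in all lines and with both siRNAs. INSIG1, SREBF1, SREBF2, FASN, ACACA and SCD were lowest in replicate 2 in all 16 groups, 6 of 30 genes, while 2.44% of all tested genes were. SREBF1 averaged 57.1, 31.7 and 53.3 CPM over the lines in replicates 1, 2 and 3 with siUPF1, and 23.0, 8.68 and 27.4 CPM with siNT. SCD averaged 467, 316 and 513 CPM with siUPF1 and 494, 331 and 544 CPM with siNT. SC5D, the sterol C5 desaturase, was highest in replicate 2 in all 16 groups. The labels do not say what a replicate number stands for. Within each number the siUPF1 libraries stayed above the siNT libraries for SREBF1, SREBF2, SCAP, ACACA and DHCR7 in all 24 pairs, and below them for PMVK, FDPS, ACAT2 and ACLY. The share of all tested genes with the same sign in 24 of 24 pairs is not given here. These pairs thus describe single genes and not the 30 genes as a group. Without replicate 2 in any group, 17 of the 30 were called in the CLIP knockdown, 7 in WT minus CLIP with siUPF1 and 6 in LECY minus WT with siUPF1.

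**Figure D4:**
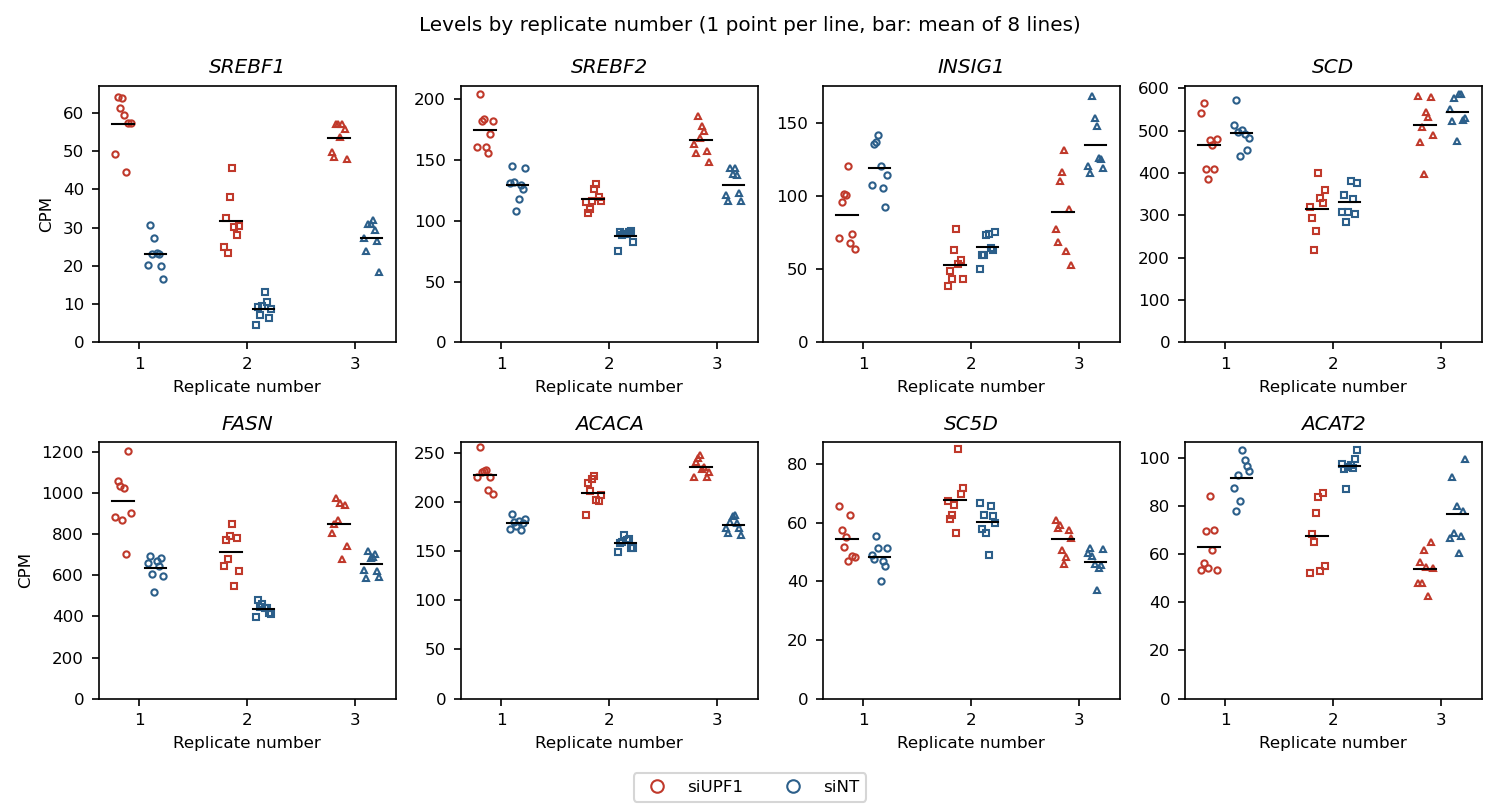
Level in CPM by replicate number for SREBF1, SREBF2, INSIG1, SCD, FASN, ACACA, SC5D and ACAT2, with siUPF1 left of siNT and 1 point per line. Bars are means of 8 lines, and replicate 2 is the lowest in all 16 groups for SREBF1, SREBF2, INSIG1, SCD, FASN and ACACA and the highest in all 16 for SC5D.

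The strand of the counting was not given in the sources used here, so reads of overlapping genes cannot be told apart. ACAT2 (74.8 CPM) shares 397 exon bases with TCP1 (361 CPM) on the opposite strand, SREBF1 (33.4 CPM) shares 556 with RAI1 (101 CPM) and MVK (17.2 CPM) shares 306 with MMAB (53.3 CPM). In the CLIP knockdown TCP1 had a log2 change of −0.19 (adjusted p = 0.233) and RAI1 one of −0.22 (adjusted p = 0.192), while MMAB fell by 0.58 (adjusted p = 0.00031). TM7SF2 (11.9 CPM) shares 16 exon bases with VPS51 (37.1 CPM) on the same strand, and VPS51 rose by 0.61 in CLIP where TM7SF2 fell. HSD17B7, at 10.1 CPM, has a transcribed pseudogene, HSD17B7P2, at 2.74 CPM, which rose by 0.88 in CLIP. The part of these neighbours in the results was not tested.

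Other genes of lipid metabolism, 98 tested in 6 lists, rose more often than they fell in the CLIP knockdown, with 27 higher and 8 lower (27.6% and 8.16%, against 18.1% and 15.6% of all tested genes). In WT 16 were higher and 7 lower (16.3% and 7.14%, against 8.43% and 6.98%), and in LECY 27 and 9 (27.6% and 9.18%, against 15.8% and 13.6%). With the replicate block they were 24 and 10 in WT (13.7% and 12.4% of all genes) and 42 and 10 in LECY (21.4% and 20.2%). Of 16 genes of SREBP processing and sterol sensing 4 rose and 2 fell in CLIP. ERLIN1, an endoplasmic reticulum membrane protein that acts in the turnover of sterol-regulated proteins, averaged 66.1 ± 3.86 CPM in CLIP cells with siUPF1 and 22.3 ± 1.10 CPM in CLIP cells with siNT (1.57, SE 0.10, adjusted p = 5.52e-16), and its partner ERLIN2 averaged 57.6 ± 3.70 CPM in CLIP cells with siUPF1 and 128 ± 7.47 CPM in CLIP cells with siNT (−1.16, SE 0.10, adjusted p = 2.02e-12). MBTPS2, the site-2 protease that frees SREBP from the membrane, fell by 0.66 in CLIP and by 0.40 in WT (adjusted p = 0.00262).

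Among 13 other sterol and isoprenoid enzymes 4 rose and 1 fell, with the largest rise in DHDDS, which starts dolichol synthesis (0.75, adjusted p = 7.88e-06). Of 18 genes of cholesterol uptake, transport and storage 7 rose, with the largest rise in LRP8, a lipoprotein receptor, by 0.37. Of 9 liver X receptor genes 2 rose, among them LPCAT3, a lysophospholipid acyltransferase, by 1.29. Of 23 genes of fatty acid supply and elongation 5 rose and 4 fell. SLC25A1, the mitochondrial citrate carrier that supplies ACLY, rose by 0.91 in CLIP and by 0.86 in WT. ACSL6, an acyl-CoA synthetase, fell by 2.17 in CLIP and had −1.24 in WT (adjusted p = 0.0576). Of 19 glycerolipid genes 5 rose and 1 fell. LPIN1, a phosphatidate phosphatase, rose by 1.12 in CLIP and had 0.28 in WT (adjusted p = 0.493), and AGPAT3, which makes phosphatidate, fell by 0.42 in CLIP.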

How the data were processed

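RNA-seq was analysed from 48 libraries in 16 groups of 3, by line and siRNA as the labels give them. The authors deposited RSEM expected counts per gene, and 9.16% of the values were not whole numbers. Per the submitters' processing notes, cutadapt, STAR, RSEM and DESeq2 were used with genome build hg38, with no versions, roles or order given. The annotation release and the strand setting are not given in the sources used here, and RSEM divides reads shared by several genes by estimation.

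Expected counts were rounded to whole numbers. Genes passing filterByExpr with a minimum count of 10 were kept, 16697 of 58870, and 1 robust quasi-likelihood model with TMM scaling was fitted (edgeR 4.0.16 in R 4.3.3; TMM factors 0.951 to 1.03). The two-sided F test was adjusted by Benjamini-Hochberg over all genes tested in each of 30 comparisons, and calls needed an adjusted p under 0.05. All adjusted p-values are from this test unless another tool is named, and the SE is the log2 change divided by the square root of F. With 3 against 3 libraries an exact permutation test cannot go below 0.1. Libraries held 6016999 to 14551820 expected counts, and depth is not the only limit on the precision. The scripts were tested on simulated counts, for the CLIP knockdown only. These counts were drawn without an effect of the replicate number, so that part of the data was not covered.

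The 30 genes and the lists of other pathway and marker genes were chosen with earlier results of these data known. Named with values in every library were genes called in the CLIP knockdown at 1.5-fold or more, called the same way in all 8 lines, or called in a difference between lines, up to 12 by p, and the 5 regulators were always named. From each of 6 other lists the genes with the largest called rise and fall in CLIP were named; 1 fall among the sterol enzymes is not reported here by name.

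Same-numbered libraries of a line deviated together. The correlation of their deviations from the group means was 0.115 to 0.469 in the 8 lines, above 0.1 in each. The replicate number can thus be read as pairing siUPF1 with siNT. The main model did not use this pairing, and calls come from it unless the block is named. Results with the number as a block in the model are given for the 30 genes where they change a call or move a count by over 1.5 times. The design text calls the replicates biological. Alternatives were the replicate block, size factors as in DESeq2 (RLE), DESeq2 1.42.0 as the test, no filter on low counts, fits of only the groups compared and leaving out each library in turn, and, added after seeing the data, leaving out replicate number 2 in all groups. Gene positions, exon lengths and overlaps came from GENCODE 29, and promoter windows from RefSeq (GRCh38.p14).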

Additional observations from a re-analysis of the deposited data

Results flagged for a closer look

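Differences in the response to siUPF1 between lines were tested directly, as the log2 change in one line minus that in another, and passed for 3 of the 30 genes. TM7SF2, a sterol C14 reductase, had a response higher by 1.18 in WT than in CLIP, and MSMO1, the C4 methylsterol oxidase, one higher by 0.95. ACLY, ATP citrate lyase, had a difference of −0.46 in LECY minus WT. The values per library stand with the comparisons above.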

How the results depend on the processing

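Counts are of the 30 genes called. No called log2 change of a single gene changed sign in any setting, while uncalled ones of at most 0.19 in size did so 69 times, with other signs of at most 0.16. Among these values 13 gained a call, 0 lost one and 77 stayed on the same side with the replicate block, against 1 gained, 1 lost and 88 with DESeq2. With the replicate number as a block, which the pairing described above allows, the knockdown called 11 in E797R, 11 in IR-ER, 13 in I757R, 16 in FE-ER and 18 in F192E. With siUPF1 it called 6 in F192E minus WT and 13 in LECY minus WT, and ACLY alone, 1 gene, in each of FE-ER, I757R and IR-ER minus WT. Pairing did not pass its check in FE-ER minus WT with siUPF1, nor in 3 of the 7 comparisons with siNT, where the block called 0. The difference in response gave 8 in WT minus CLIP, 8 in LECY minus WT and 1 in F192E minus WT with the block. Without the filter on low counts the knockdown called 13 in F192E, 12 in FE-ER, 12 in I757R and 10 in IR-ER, the siUPF1 comparisons 2 in F192E minus WT and 1 in E797R minus WT, and the difference in response 6 in WT minus CLIP and 2 in LECY minus WT. DESeq2 called 2 in F192E minus WT with siUPF1, and in response 4 in WT minus CLIP and 2 in LECY minus WT. Fitting only the groups compared called 3 in the I757R knockdown, and 0 in F192E minus WT with siUPF1 and in the LECY minus WT response. For the mean over lines that fit is the one reported. Without replicate number 2 in all groups, 11 were called in the FE-ER knockdown and 0 in F192E minus WT with siUPF1. The causes of these moves were not tested. RLE size factors moved no count by over 1.5 times.

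Leaving out 1 library gave 2 to 6 in the WT knockdown, 4 to 8 in FE-ER and 3 to 5 in E797R. It gave 4 to 8 in WT minus CLIP and 0 to 1 in F192E minus WT with siUPF1, and in response 1 to 3 in WT minus CLIP and 0 to 2 in LECY minus WT. With 3 libraries a group the SE of the log2 change in CLIP ran from 0.09 for ACLY, at 514 CPM with siNT, to 0.55 for SREBF1, at 14.5 CPM with siNT. The level alone did not set the SE, since PMVK, at 13.4 CPM, had a smaller SE than INSIG1, at 103 CPM. A change of the same size can thus pass for one gene and not for another. An uncalled gene is not shown to be unchanged.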
